A study of Mus musculus with 2 samples.

Results

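Clustered repeats on mouse chromosomes 6, 7 and 18 are described, at 4 places of the build mm9 where RNA sequencing depth in embryonic stem (ES) cells with an active 2C::tomato reporter was 4-fold or more above that in cells without it. The members are all stretches of adjacent bases with a depth above 0 in either library inside chromosome 6, 23100001 to 23120000 (the proximal array) and 50540001 to 50580000 (the distal array), chromosome 7, 58190001 to 58250000, and chromosome 18, 80200001 to 80230000. There are 96 such covered blocks, of 801091 in the whole genome, and they hold 11715 of 70893028 alignments. The spans were chosen by the positive to negative ratio of these same libraries, so every ratio below is a description and carries no test.

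The 2C::tomato reporter places a red fluorescent protein under control of the MuERV-L endogenous retrovirus. That element is transcribed when the mouse embryonic genome is first activated, at the 2-cell stage, and again in a small, changing fraction of cultured ES cells. Cells in that state are known for transcripts of recently duplicated, clustered genes, such as the Zscan4 family. In a cluster of near-identical copies a short read can match several places at once, so the level of a single copy cannot be read directly.

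The study sorted ES cells by flow cytometry into 2C::tomato+ and 2C::tomato- cells and sequenced the mRNA of each, with 1 library per population. Both populations share a mixed strain background, a floxed Kdm1a gene (Kdm1a FL/FL), which encodes the histone demethylase LSD1, and a CreERT transgene. The cells grew on gelatin in ES-KOSR medium with hygromycin. No agent that induces CreERT is named in the labels, which also describe a cross of LSD1 FL/FL with ZP3::Cre mice as a source of oocytes. The cells were defined by the reporter alone, and other markers of their state were not analysed here.

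The positive library held 37059813 alignments of 72 bases and the negative library 33833215. The 10 kb windows covered by 20 or more alignments numbered 48349, and in 817 of them (1.69%) the positive share was 4-fold or more above the negative share with a 95% counting interval that excluded 1. All 15 windows of the arrays were among them, as the choice of the spans required. Intervals cover counting error only, and since a read is listed at each place it matches, they are too narrow inside repeats. With 1 library per population there is no replicate check.

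All 4 arrays were covered mainly in the positive library, and the chromosome 18 array differed from the others in how little of it appeared in the negative library. The proximal chromosome 6 array held 2915 positive and 282 negative alignments. As shares of each library's summed depth these were 78.7 and 8.335 per 1000000, a ratio of 9.44 (8.35 to 10.7). The distal chromosome 6 array held 3403 and 264 alignments, or 91.8 and 7.80 per 1000000, a ratio of 11.8 (10.4 to 13.4). On chromosome 7 the array held 2411 and 233 alignments, or 65.1 and 6.89 per 1000000, a ratio of 9.45 (8.26 to 10.8). Down-weighted by the number of places of each stretch, the chromosome 7 ratio was 15.25, but 1330 positive and 56 negative alignments there lay in no distinctive stretch and kept full weight, although nearly all of them were inside matching copies (1289 and 56). These 3 arrays thus lay between 65.1 and 91.8 per 1000000 in the positive library and between 6.89 and 8.335 in the negative library. On chromosome 18 the positive library held 2193 alignments (59.2 per 1000000), close to the level of chromosome 7, but the negative library held only 14 (0.414 per 1000000). Its ratio was 143 (85.0 to 262). Down-weighted by the number of places, its counts were 969.5 and 7, a ratio of 126. The intervals of the 4 arrays count an alignment at every place where it is listed, so they are too narrow to compare arrays by overlap. A read is listed at each place it matches, and the arrays differ in the number and likeness of their copies. Levels per 1000000 are therefore not amounts of RNA to be compared between arrays. In sorted bulk cells, fewer transcribing cells and less RNA per cell cannot be told apart. The region of the genome around the window with the highest interval bound, a tandem array of chromosome 10 at 103600001 to 103640000, held 11561 and 20 alignments, a ratio of 528 (341 to 864).

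**Figure D1:**
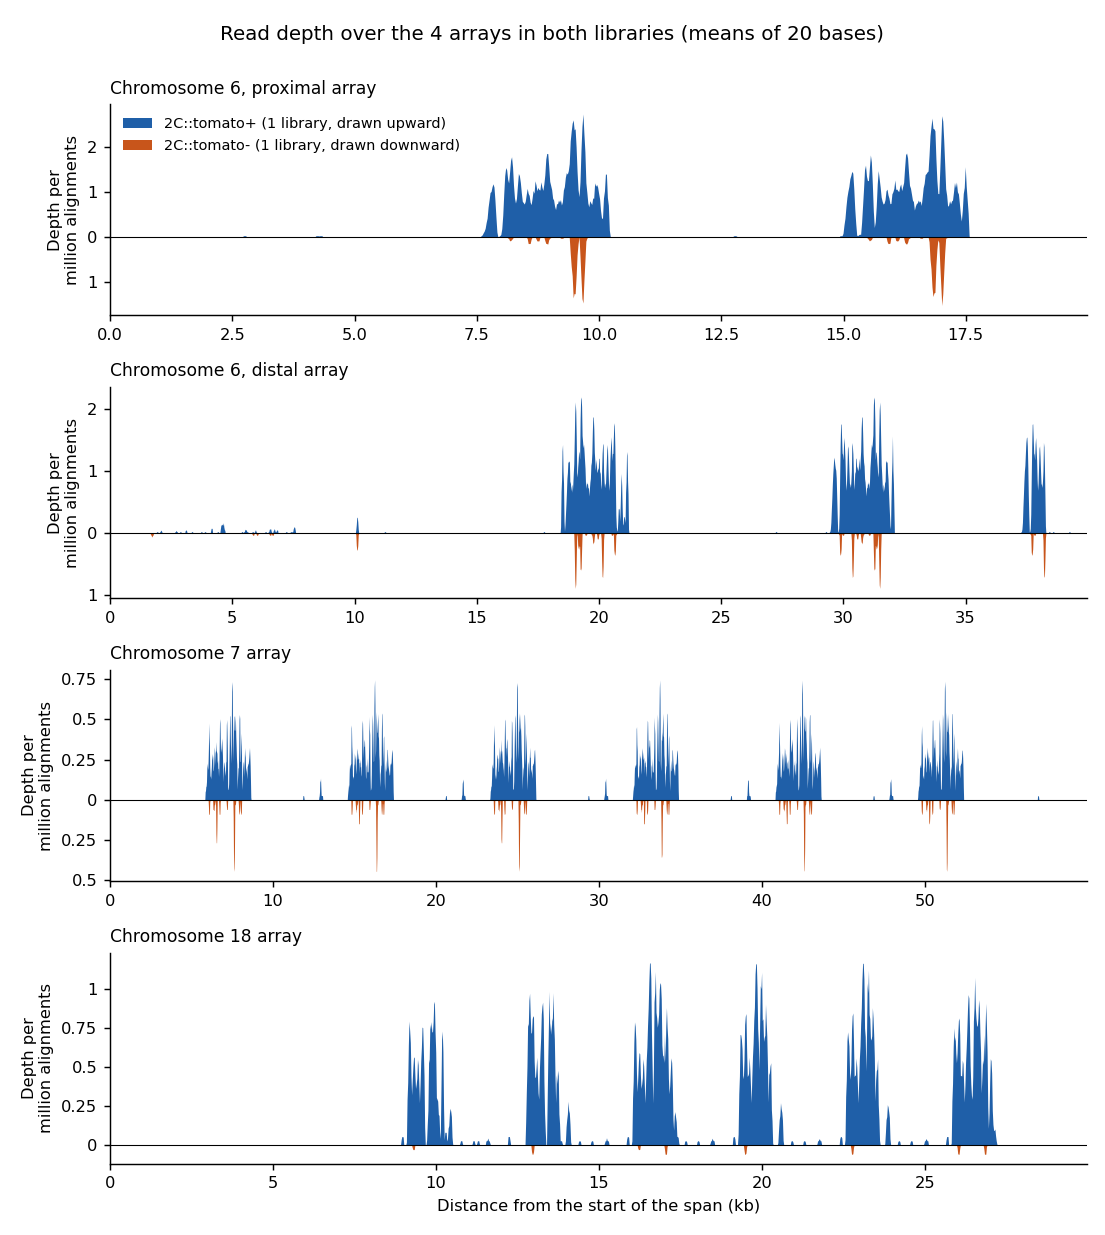
Read depth per 1000000 alignments of each library (vertical axis, positive library upward and negative library downward, means of 20 bases) against the distance from the start of each span in kb. The positive signal falls into 2, 3, 6 and 6 blocks of copies, and most of the negative signal on chromosomes 6 and 7 sits in narrow peaks inside them; a small peak of 9 negative alignments lies outside the copies of the distal array, and chromosome 18 has 14 negative alignments in all.

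The arrays ended sharply. Of the 40 windows of 10 kb within 50 kb on either side, 20 held no alignment in either library and 34 held at most 5 in all. The windows directly beside the proximal chromosome 6 array held 0 alignments, and those beside the chromosome 7 array held at most 2 in either library. Beside the distal array the neighbours held 1 and 1 alignments before it and 2 and 0 after it, and beside chromosome 18 they held none before it and 5 and 3 after it. Only 4 flanking windows reached 20 alignments, and each was covered about alike in both populations. The window at 50510001 on chromosome 6 held 1663 and 1728 alignments, a ratio of 0.879 (0.821 to 0.940), and that at 80150001 on chromosome 18 held 4796 and 4705, a ratio of 0.931 (0.894 to 0.969). Below that minimum, the window at 50520001 near the distal array held 10 and 1 alignments, a ratio of 9.13 (1.30 to 396). Inside the spans the window ratios ran from 7.91, for 52 and 6 alignments in the first window of the distal array, to 225 (39.9 to 8906), for 246 and 1 in the first window of chromosome 18.

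**Figure D2:**
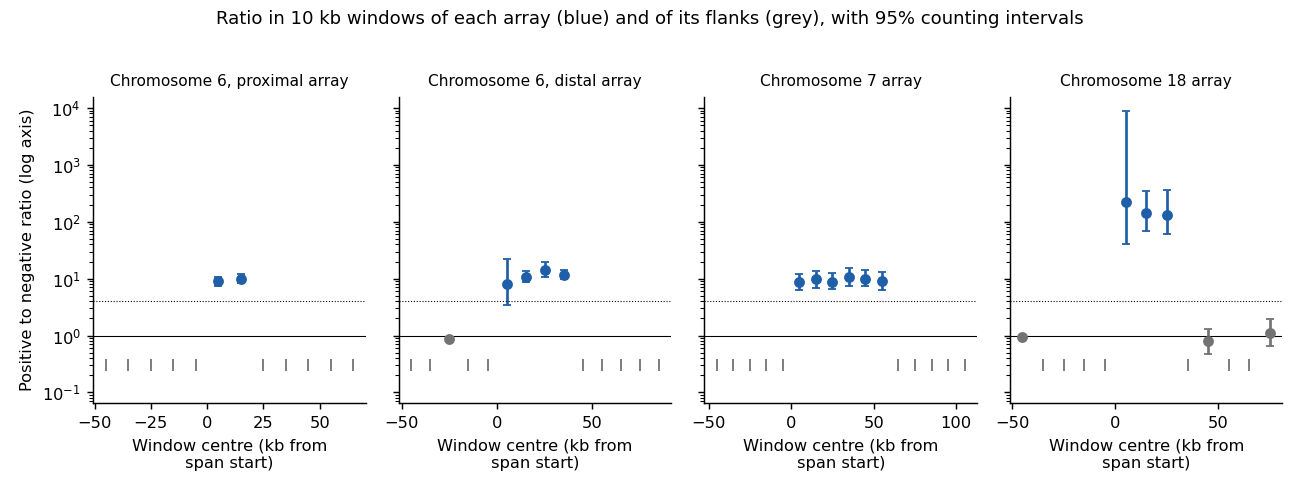
Positive to negative ratio (log axis) of each 10 kb window against its distance from the span start in kb, for the arrays (blue) and their flanks of 50 kb (grey), with 95% counting intervals. Grey ticks mark windows with fewer than 20 alignments, and the dotted line is at 4-fold; the 15 array windows lie above it and the 4 flanking windows lie near 1.

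The inner order of each array was read from stretches of 64 bases whose start counts were identical, base by base and in both libraries, at several places. Covered blocks closer than 500 bases were joined, and joined blocks with at least 100 alignments are called copies. These copies held 99.9% of the alignments of the proximal array, 97.8% of the distal array, 98.5% on chromosome 7 and all on chromosome 18. A tandem order, with copies in the same orientation, was found in 3 of the 4 spans. The distal chromosome 6 array was mainly an inverted repeat.

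The chromosome 7 array was the most regular. Its 6 copies began at 58195818, 58204567, 58213314, 58222069, 58230820 and 58239572, between 8747 and 8755 bases apart. Each was an unbroken covered block of 2811 bases, except copy 4 with 2810. The copies held 399, 395, 399, 388, 394 and 395 positive alignments, and 42, 38, 42, 35, 38 and 38 negative ones. Their ratios ran from 8.67 to 10.1, with overlapping intervals. When copies were laid over each other, between 96.8% and 100% of a copy's alignments were listed at the same place of the other copy. Copies 1 and 3 matched completely, and the 4 negative alignments that began 656 bases into copy 1 were listed in copy 3 as well. Of the alignments of copy 1, 62.4% were found in copy 4 with a fixed distance and 96.8% when the distance could change inside the copy. Out of register, displaced by 300 bases, the matched share was 25.6% to 29.5%. The space between copies was nearly empty, yet it repeated too: a block of 234 bases with 7 positive and 0 negative alignments followed each of the first 5 copies.

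The chromosome 18 array also had 6 copies in the same orientation, with shorter units and copies that matched less closely. Adjacent copies shared most stretches at distances of 3650, 3269, 3256, 3283 and 3263 bases, while the copies' first covered bases lay 3271, 3648, 3256, 3283 and 3263 bases apart. The longer interval thus fell before or after the start of copy 2, depending on which part of that copy was aligned. The positive library held 300, 332, 432, 367, 367 and 395 alignments in the 6 copies and the negative library 1, 2, 3, 2, 2 and 4. Copies 4 and 5 held the same counts and matched at 99.5%, while other pairs matched at 71.0% to 93.7% when the distance could change inside the copy. With a fixed distance those other pairs matched at 35.8% to 82.9%. Displaced by 300 bases, the matched share over all pairs was 26.4% to 52.6%, higher at its upper end than on chromosome 7. In addition, 32.9% of its 926 distinctive stretches were found at 1 place only, against 0.690% of 290 on chromosome 7. Coverage in each copy was dense over a core and thin beside it. The longest cores were unbroken blocks of 1433 bases at 80216016 to 80217448, with 426 and 3 alignments, and of 1387 bases at 80225818 to 80227204, with 393 and 4. Copies 4 and 5 each had a core of 1052 bases with 347 and 2 alignments, followed by a block of 165 bases with 14 and 0. Blocks of that same length stood after the core in the first copy, with 12 and 0, and in the second copy, with 14 and 0. The second copy's core was split by a gap, with 191 and 2 alignments in its first block and 121 and 0 in its second.

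On chromosome 6 the proximal array held 2 copies in the same orientation, 7352 bases apart. The first, at 23107574 to 23110210, held 1453 and 141 alignments, and the other, at 23114919 to 23117562, held 1458 and 141. They matched at 99.0% and 98.1%, against 58.0% and 58.2% when displaced by 300 bases. The first copy was split by a short gap into a block of 344 bases with 98 positive and 0 negative alignments and a block of 2259 bases with 1355 and 141, while the other copy was covered without a break. The remaining 4 blocks of the span held 1 positive alignment each.

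The distal array held 3 copies. The first, at 50558433 to 50561206, held 1422 and 106 alignments. The second, at 50569256 to 50572078, held 1420 and 106 and lay in the opposite orientation to the first, which it matched at 97.6%. The third, at 50577263 to 50578626, was shorter, with 495 and 37 alignments, and lay in the same orientation as the second at a distance of 7840 bases. Of the third copy's alignments 95.7% were found in the second, but only 34.0% of the second copy's in the third. Displaced by 300 bases, the second copy matched the first at 60.2%, the third matched the second at 67.5%, and the second matched the third at 14.8%. Most of the first copy was a block of 2627 bases with 1356 and 106 alignments, most of the second a block of 2304 bases with 1301 and 106, and the third had a block of 666 bases with 354 and 37. Of 1871 distinctive stretches, 89.4% recurred within the span in the opposite orientation and 22.8% in the same orientation. Near the start of the span lay a run of thin blocks outside the copies, with 66 and 15 alignments outside copies in all, a ratio of 4.02 (2.27 to 7.58). The block at 50550045 to 50550162 was covered alike in both libraries, by 10 against 9 alignments (ratio 1.01, 0.370 to 2.82).

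Both chromosome 6 arrays carried related copies. Of the 1609 distinctive stretches of the proximal array 51.2% were found in the distal array, and of the 1871 of the distal array 48.8% were found in the proximal one. Their second copies lay in the same orientation. The arrays of chromosomes 7 and 18 shared no such stretch with another array.

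**Figure D3:**
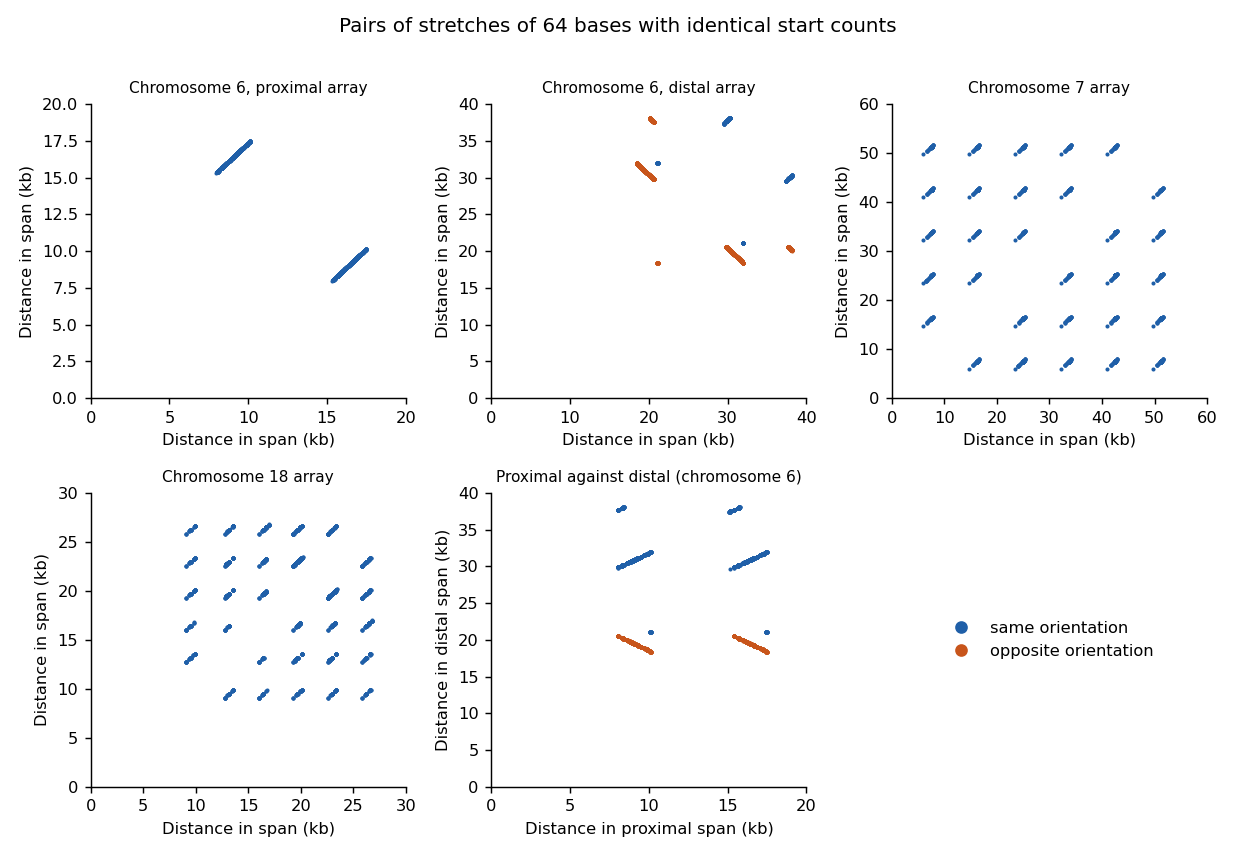
Each point is a pair of 64-base stretches with identical start counts, by their distances in kb from the start of the span (horizontal and vertical axes), within each array and between both chromosome 6 arrays. Blue diagonals mark the same orientation and orange ones the opposite: chromosomes 7 and 18 show grids of 6 by 6 copies without the diagonal itself, and the distal array shows mainly orange.

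On chromosomes 6 and 7 a few segments of each copy held a larger share of the negative than of the positive alignments. The segments were picked by their negative counts, which favours such a difference. By single positions, the most covered 10% of each library's start positions differed less. They held 30.5% of the negative and 26.9% of the positive alignments in the proximal array, and 29.55% and 25.3% in the distal array. On chromosome 7 they held 20.2% and 22.3%, the other way round. In the second proximal copy on chromosome 6, divided into segments of 200 bases, 87.2% of the negative alignments lay between bases 1800 and 2200. The first of these segments held 203 positive and 68 negative alignments, a ratio of 2.73 (2.06 to 3.64), and the next held 167 and 55, a ratio of 2.77 (2.03 to 3.83). The remaining segments together held 1088 and 18, a ratio of 55.2 (34.8 to 93.5), and 6 of the 13 segments with at least 20 alignments had no negative one. The ratio of 9.44 for the whole array pools these values. The negative alignments of the first of these segments began at 36 positions, with at most 5 at any of them, and those of the next at 25 positions, with at most 10. Over the whole array, counting each start position 1 time gave 1671 and 150 positions, a ratio of 9.62 (8.14 to 11.45).

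The distal array also had such segments. In its second copy the segment from base 2000 held 136 and 28 alignments, a ratio of 4.43 (2.94 to 6.92), and that from base 1000 held 102 and 24, a ratio of 3.88 (2.47 to 6.33). These 2 segments held 49.1% of the copy's negative alignments. The other segments together held 1182 and 54, a ratio of 19.98 (15.2 to 26.8), but they were not alike. Among them the segment from base 400 held 58 and 12, a ratio of 4.41 (2.34 to 9.03). That from base 1800 held 176 and 20, a ratio of 8.03, and that from base 2200 held 106 and 11, a ratio of 8.80. The shorter copy 3 had 97.3% of its negative alignments in 2 segments. The one from base 800 held 84 and 24, a ratio of 3.20 (2.01 to 5.26). The one from base 400 held 161 and 12, a ratio of 12.25 (6.82 to 24.2), and the rest of copy 3 held 250 and 1. In the second copy, the segment from base 200 held 95 positive alignments and no negative one. A block of 344 bases near the start of copies 2 and 3 had 118 and 139 positive alignments and likewise none in the negative library, which with the 98 of the proximal block gives 3 blocks of this length without negative signal. Those blocks recur as related copies and are not independent of each other.

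On chromosome 6 the ratio also differed with where a stretch was found. Alignments in stretches common to both arrays numbered 1993 and 74 in the proximal array, a ratio of 24.6 (19.5 to 31.4), and 2247 and 76 in the distal array, a ratio of 27.0 (21.5 to 34.4). Such stretches have identical start counts in both arrays by definition, so these ratios are not independent of each other. Repeated stretches also count at several copies of an array, which makes the intervals of this paragraph too narrow. Alignments in stretches repeated only inside the proximal array numbered 730 and 208, a ratio of 3.20 (2.74 to 3.76), and inside the distal array 953 and 173, a ratio of 5.03 (4.27 to 5.95). Thus 73.8% and 65.5% of the negative alignments, but 25.0% and 28.0% of the positive ones, lay in stretches repeated inside 1 array only. In distinctive stretches found at 1 place the proximal array held 178 positive and 0 negative alignments, where the lower bound of the ratio's interval was 43.6, and the distal array 100 and 0, with a lower bound of 24.3. A distinctive stretch must hold at least 20 starts, and every class compared here is made of such stretches. Alignments in no distinctive stretch, 14 and 0 in the proximal array and 103 and 15 in the distal array, are in none of them. Why the ratios of these classes differ was not tested.

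On chromosome 7 the negative signal of the first copy was densest between bases 1600 and 1800, where 51 stood against 15 (ratio 3.10, 1.72 to 5.94). The rest of that copy beyond its 2 densest segments held 320 and 18, a ratio of 16.2 (10.1 to 27.7). Those 2 segments were picked by their negative counts, 15 and 9 of 42, so a lower ratio in them than in the rest is partly set by the choice. Over the array, stretches that were also found outside it held 14.8% of the positive and 42.5% of the negative alignments, 357 against 99 (ratio 3.29, 2.63 to 4.16). Without them the array held 2054 and 134, a ratio of 13.99 (11.8 to 16.8). That remainder includes 1330 and 56 alignments in no distinctive stretch, so the minimum of 20 starts makes these classes differ in coverage. The outside places were in the chromosome 7 windows at 58400001, in the same orientation, and at 90560001, in the opposite orientation. The latter window held 356 and 90 alignments, a ratio of 3.61 (2.86 to 4.60). Its alignments outside the shared stretches numbered 315 and 72, a ratio of 3.99 (3.08 to 5.23). They are not shown to be its own, since alignments in no distinctive stretch were not traced to other places. The window at 58400001 held 193 and 4, a ratio of 44.1 (16.9 to 163). Outside the shared stretches it held 171 and 3, a ratio of 52.0 (17.5 to 255). The part of these outside places in the negative signal of the array was not tested.

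The chromosome 18 array had no segment rich in negative alignments. Its 14 negative alignments began at 12 positions, none with more than 2, and covered 628 bases against 9687 in the positive library. In the third copy the densest negative segment held 2 alignments beside 74 positive ones, and 4 of its 6 segments with at least 20 alignments had none. Stretches repeated in the array held 1670 and 11 alignments, a ratio of 139 (77.3 to 278), and distinctive stretches found at 1 place held 352 and 3, a ratio of 107 (36.4 to 522). The counts are small, and the order of these values cannot be told from counting error.

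**Figure D4:**
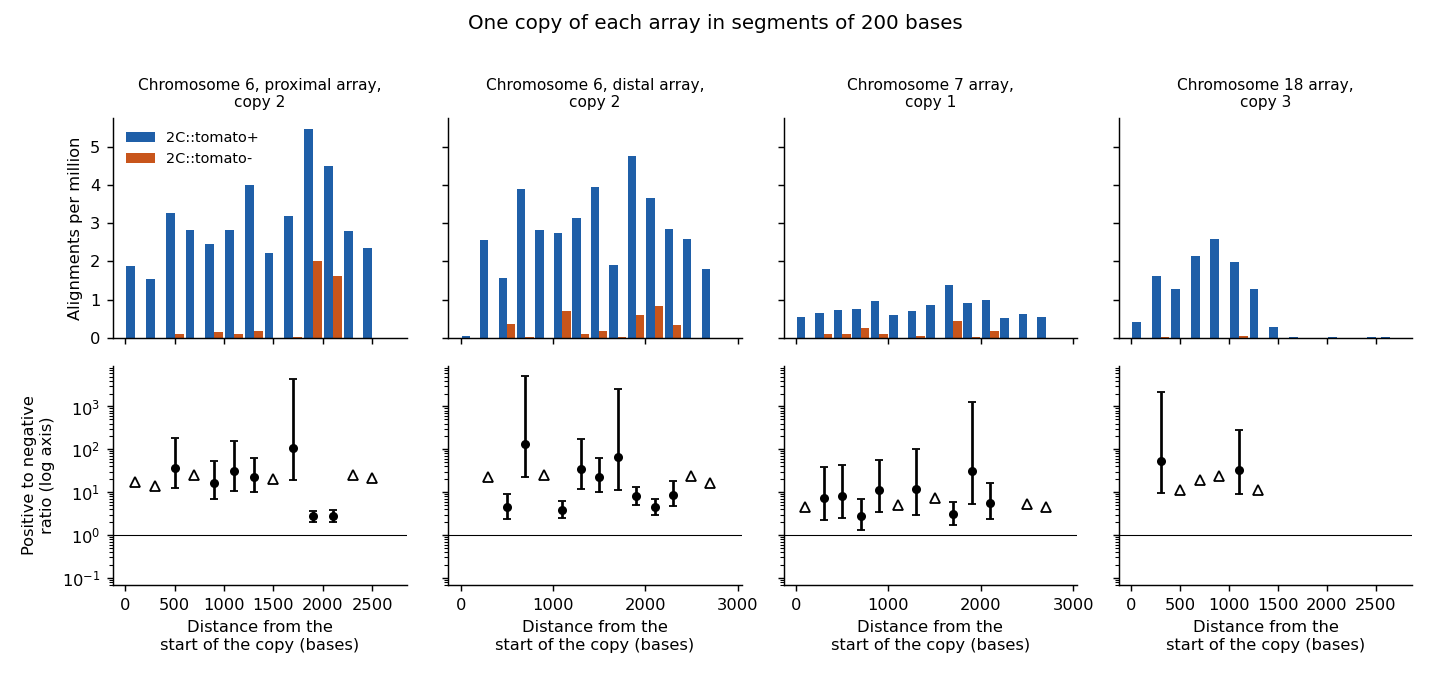
Alignments per 1000000 in both libraries (upper row, bars) and the positive to negative ratio with its 95% counting interval (lower row, log axis) in segments of 200 bases along 1 copy of each array, by distance from the start of the copy. Open triangles are lower bounds for segments without negative alignments, and segments with fewer than 20 alignments have no ratio; on chromosome 6 the segments from base 1800 of the proximal copy lie near 2.7 while most others lie above 10.

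Across the arrays, 74 of the 96 covered blocks (77.1%) had no negative alignment, against 42.55% of all blocks of the genome. Most of these were thin, and together they held 861 positive alignments. A single block, with 2 alignments, was covered in the negative library alone, in the distal chromosome 6 array. At least 10 alignments lay in 30 blocks, of which 12 had no negative one; in the genome 914 of 138349 such blocks (0.661%) had none. The spans were chosen for their high ratio, so nothing is read from these shares. At least 10 negative alignments lay in 11 of the 30 blocks, 2 in the proximal array, 3 in the distal array and 6 on chromosome 7. Where the negative library covered a base, the positive library covered it as well in the proximal, chromosome 7 and chromosome 18 arrays, and for 91.3% of such bases in the distal array, against 69.85% over the genome. The choice of spans well covered in the positive library favours such shares, and the genome share is not matched for depth. Nothing is read from this difference either.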

How the data were processed

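For each library the authors deposited a coverage track whose signal is the number of aligned reads over each base, unscaled. The submitters' processing notes name Bowtie and mm9; its version, settings and filters were not given in the sources used here. Both tracks came from sorted BAM files, per the file headers.

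Each track was decoded into alignment starts with Python 3.11.15 and numpy 2.4.6. At a length of 72 bases all start counts were whole and at least 0, so spliced reads are absent and summed depth is proportional to alignments. Ratios compare shares of each library's total, with exact conditional binomial (Clopper-Pearson) 95% intervals from scipy 1.17.1. A distinctive stretch has 64 bases, at least 8 positions with starts and at least 20 starts. Copies were matched with shifts of up to 40 bases, each change costing 3 alignments. Steps were tested on simulated data. The blocks named are the 5 most covered of an array and up to 5 with at least 10 negative alignments; others were chosen after their values were seen, as were copies and segments. The spans and lists were chosen with earlier results of these data known. The annotation at hand is of another build, so genes and sequences of the spans were not analysed here. Windows were recounted under other minimum counts, window sizes and position counting.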

Additional observations from a re-analysis of the deposited data

How the results depend on the processing

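No ratio fell to the other side of 1 under the alternatives tried, but the spans were chosen by this ratio in these same libraries. That outcome was largely set in advance and is no check of the ratios. Of 27 recomputed ratios, 23 stayed inside the main counting interval. Those by share of all alignments equal the main ones by construction, since every alignment has 72 bases. Scaling by the median ratio of windows only changed a factor common to all arrays, 1.089 in place of 1.095. These alternatives are thus no separate check of an array. Down-weighting by the number of places gave 7.80 for the proximal chromosome 6 array, 10.15 for the distal array and 15.25 on chromosome 7. Leaving out stretches found at several places gave 21.7 on chromosome 7. That value is not one without repeats, since 1330 of its 1333 positive alignments lay where starts were too few to define a stretch, nearly all inside matching copies. The proximal array had no finite value. Unit lengths by autocorrelation were 1010 bases for the distal array, whose copies are mainly inverted, and 3260 on chromosome 18. Blocks of the distal array became 22 with gaps of up to 100 bases joined and 16 at a depth of at least 5, which gave 94 on chromosome 7 and 18 on chromosome 18. As a share of all start positions, in place of summed depth, the negative signal was 20.85 per 1000000 for each chromosome 6 array, 20.99 on chromosome 7 and 1.67 on chromosome 18. The 817 windows at least 4-fold higher became 447 with windows of 50 kb and 374 with at least 50 alignments. Joining gaps of up to 1000 bases, added after the data were seen like the limit of 3 alignments per position, merged the 6 chromosome 18 copies into 1. The chromosome 18 ratio rests on 14 negative alignments. No paired analysis was possible because the design has 1 library on each side, and no replicate could be left out.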
